A study of Canis lupus familiaris with 23 samples.

Results

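The 10 genes described here encode immediate early transcription factors: FOS, FOSB and FOSL1 of the FOS family, JUN, JUNB and JUND of the JUN family, EGR1, EGR2 and EGR3, and the orphan nuclear receptor NR4A1. They were chosen by symbol, 10 of the 20444 named genes in the tissue and expansion libraries. All 10 are listed in 17 libraries, and 8 of them, without FOSB and EGR3, in the 6 differentiation libraries, which list 18110 named genes. The same 8 had enough counts to be tested.

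FOS and JUN proteins pair through a leucine zipper to form AP-1, a dimer that binds a short DNA motif. The JUN proteins can also pair with each other, whereas the FOS proteins need a JUN partner. FOS, EGR1 and NR4A1 are transcribed within minutes of a growth factor, stress or cAMP signal, without new protein synthesis, and their messages are short-lived. FOSL1 accumulates later, during sustained MAP kinase signalling. In epidermis AP-1 acts on involucrin, matrix metalloproteinases and other genes of differentiation and wound repair.

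RNA abundance was measured in dog skin and in epidermal organoids, which are balls of keratinocytes grown in a gel, by CEL-seq2, a method that counts messages from their 3′ ends. Organoids were bulk cells taken after 7 days of culture, from passages 0 to 1 (early) or passages 3 to 6 (later; "mid-term" in the labels). Later follicle organoids in differentiation medium gave 2 libraries lacking Forskolin as well as Noggin and R-Spondin-1, 2 lacking only Noggin and R-Spondin-1, and 2 with no omission named, called the complete medium here. Noggin is a BMP antagonist, R-Spondin-1 strengthens Wnt signals, and Forskolin activates adenylyl cyclase, which makes cAMP. The labels name no medium for the other organoids, which are called expansion cultures here. Interfollicular organoids in expansion medium, all with a Tgf-beta inhibitor, gave 1 later and 1 early library, so neither has a replicate. Follicle organoids in expansion medium gave 2 later libraries with the inhibitor and 2 without, and 3 early libraries with it and 2 without. Tissue gave 2 libraries of hair follicles, a mix of growing and resting ones, 2 of interfollicular epidermis and 2 of whole skin. The labels do not say whether replicates came from different dogs or cultures, so the p-values below measure only the spread between these libraries, which may be technical.

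Total counts ran from 86301 in an interfollicular epidermis library to 4822410 in an early follicle organoid library, and mitochondrially encoded genes took 5.35 to 26.9% of them. All 5 keratinocyte markers examined (KRT5, KRT14, KRT15, TP63 and KRT10) had counts in every group. The later interfollicular organoid library stood apart from the other organoids, with hair shaft markers at a summed 613.5 CPM and fibroblast markers at 679.6 CPM. Some results that use it, but not all, are therefore also given without it. Levels are in CPM, the count scaled to library size, with TMM factors. Changes are log2 fold changes ± SE from edgeR's quasi-likelihood test, with p-values adjusted by the Benjamini-Hochberg method over all 9878 genes tested, or over the 9722 of these listed in the differentiation libraries. A gene is called at an adjusted p under 0.05. Levels are compared between libraries and never between genes. In these bulk samples, fewer cells of a type and less RNA per cell cannot be told apart.

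**Figure D1:**
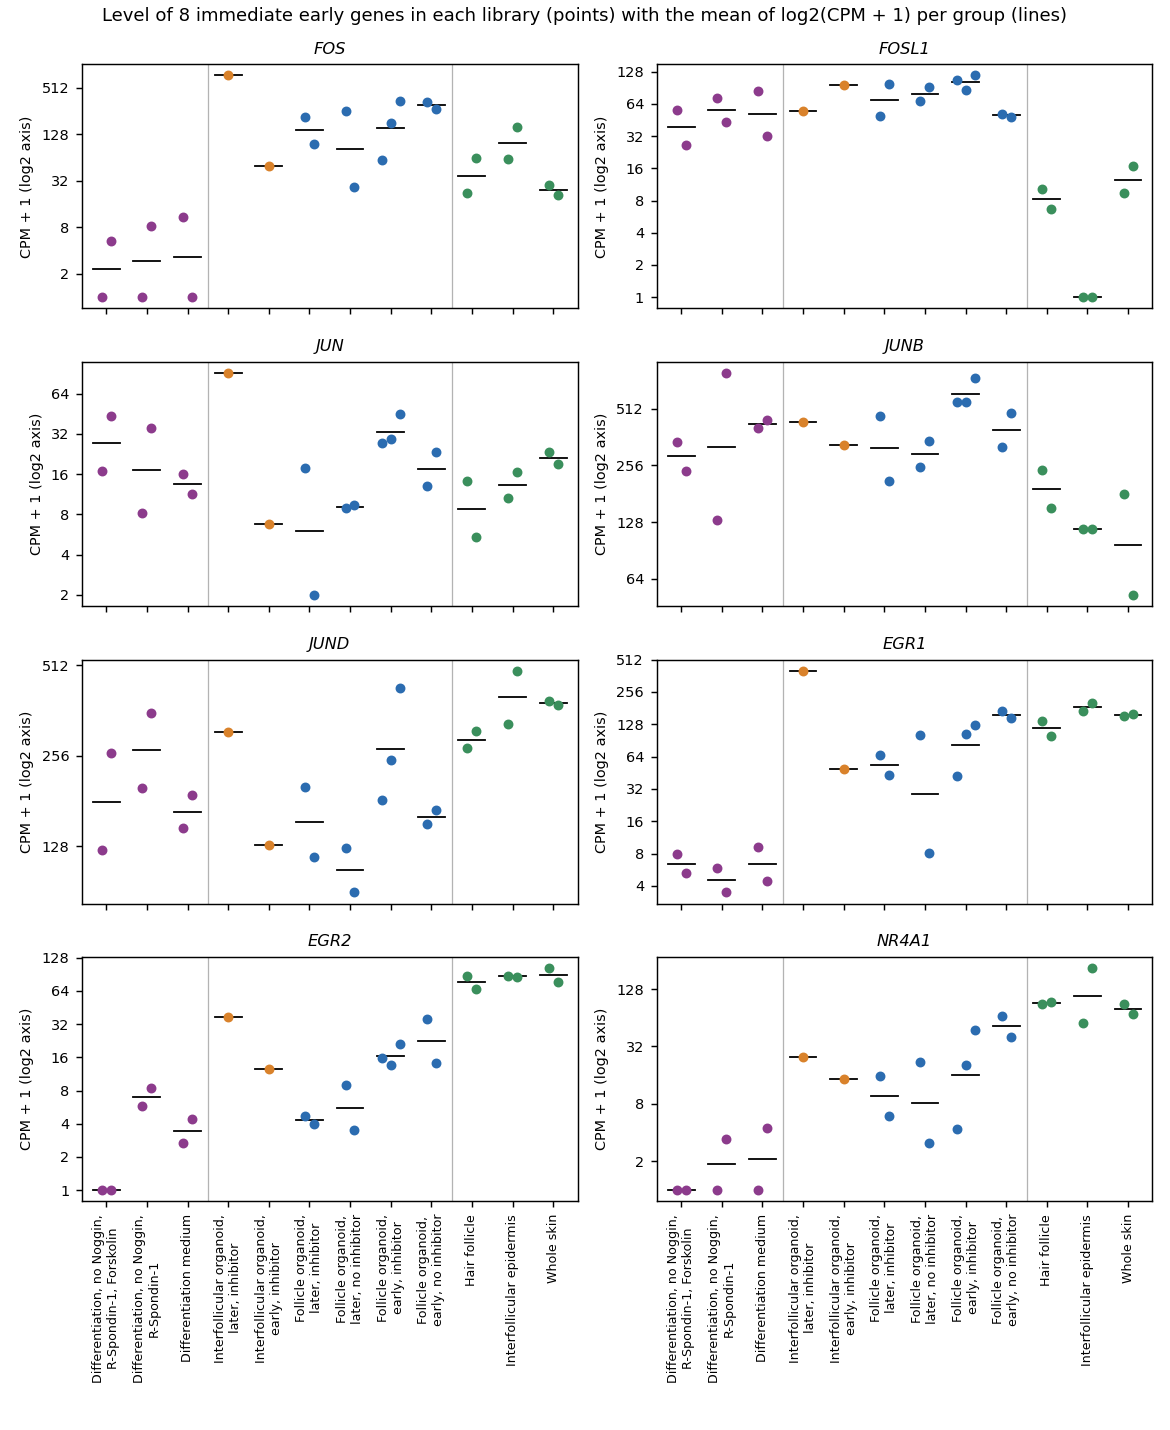
Level of the 8 tested genes in each library, as CPM + 1 on a log2 axis (points), with the mean of log2(CPM + 1) per group (lines). Purple is differentiation medium, orange interfollicular organoids, blue follicle organoids in expansion medium and green tissue. FOSL1 is higher in all 11 expansion libraries than in all 6 tissue libraries, and FOS is lower in all 6 differentiation libraries than in any other.

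The organoids were first set against the tissue they came from. In follicle organoids, FOSL1 rose while EGR2 and NR4A1 fell relative to hair follicles, and FOS passed the test more narrowly. These were 4 of the 8 tested genes, beside 28% of all genes called in this comparison, 9.07% higher and 19% lower. The 8 genes had a median log2 change of 0.18, against 0.005 over all genes, and moved in both directions.

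FOSL1, the late FOS family member, ran from 47.1 to 117 CPM with a median of 84.5 CPM in the 9 follicle organoid libraries, against 9.16 and 5.65 CPM in the hair follicles. Every organoid library was above both follicle libraries. The rise was 3.36 ± 0.50 (edgeR adjusted p = 2.72e-05), and no alternative setting ended this call.

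FOS, the founding member, ran from 25.5 to 345 CPM with a median of 212.5 CPM in follicle organoids, against 20.9 and 62.1 CPM in follicles. The groups overlapped: 2 of the 9 organoid libraries were below the higher follicle library. The change was 2.14 ± 0.76 (edgeR adjusted p = 0.0396), and it was not called with DESeq2 size factors (1.97, adjusted p = 0.0559), with library totals (1.98, 0.0608) or in a fit of these groups alone (2.11, 0.0594). It was also not called without follicle replicate 1 (1.63, 0.3) or replicate 2 (3.16, 0.0885), later inhibitor replicate 1 (1.99, 0.0642), early replicate 1 without inhibitor (2.12, 0.0516) or later replicate 1 without inhibitor (1.52, 0.0786). FOSB, its close relative, had a total of 1 count over the 17 libraries that list it, in an early organoid library with inhibitor.

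EGR2, a zinc finger factor known for its role in peripheral nerve myelination and also in the hair follicle, ran from 2.50 to 34.6 CPM with a median of 12.65 CPM in follicle organoids, against 86.4 and 65.9 CPM in follicles. No organoid library reached the follicle level. EGR2 fell by 3.05 ± 0.33 on the log2 scale (edgeR adjusted p = 3.93e-07), in every setting tried.

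NR4A1 ran from 2.09 to 65.3 CPM with a median of 19.6 CPM in follicle organoids, against 89.0 and 93.5 CPM in follicles. The groups did not overlap, but the organoid libraries spread over a wide range. NR4A1 fell by 2.19 ± 0.57 (edgeR adjusted p = 0.00611); without follicle replicate 2 the value was -2.17 (adjusted p = 0.0768). EGR1, which responds to many of the same signals, ran from 7.10 to 168 CPM with a median of 101.5 CPM in organoids, against 137 and 99.15 CPM in follicles. These groups overlapped (-0.55 ± 0.50, adjusted p = 0.442), although without the higher later library lacking inhibitor EGR1 was called at -1.29 (adjusted p = 0.00612). EGR3 had 4 counts in the tissue libraries and 2 in the follicle organoids, too few to test.

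None of the JUN family genes was called in follicle organoids. JUNB, a JUN protein that is often a weaker activator than JUN, ran from 211.5 to 746 CPM with a median of 465 CPM, against 241 and 151 CPM in follicles (1.02 ± 0.50, edgeR adjusted p = 0.137); a fit of these groups alone called it (1.00, 0.0303), as did a fit without the filter on low counts (1.06, 0.0322). JUND, whose message is less dependent on stimulation, ran from 88.9 to 429 CPM with a median of 167.5 CPM, against 271 and 307.5 CPM in follicles (-0.79 ± 0.33, adjusted p = 0.0742). JUND was called lower with DESeq2 size factors (-0.97, 0.0316), with library totals (-0.98, 0.0372), by DESeq2's test (-0.97, 0.0346), in a fit of these groups alone (-0.82, 0.0411) and without early inhibitor replicate 3 (-0.89, 0.0393). JUN ran from 0.998 to 44.0 CPM in organoids, against 13.1 and 4.39 CPM in follicles (0.90 ± 0.63, adjusted p = 0.306).

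The make-up of the JUN family was described as shares of its own counts, in which library scaling plays no part. JUNB took 52.2 to 78.0% of the counts of the JUN family in the 11 expansion libraries, against 11.61 to 45.9% in the 6 tissue libraries. JUND took 20.1 to 37.0% in the expansion libraries, against 51.6 to 84.4% in tissue. Neither share overlapped between expansion and tissue libraries. JUN took only 0.303 to 10.9% in the expansion libraries and 0.949 to 4.02% in tissue. The JUNB and JUND shares are therefore close to complements and not separate observations. How often the shares of other genes separate in this way was not counted. The exact (Clopper-Pearson) 95% intervals of the JUNB share did overlap between the later interfollicular organoid library, at 43.5 to 60.7%, and follicle replicate 1, at 40.9 to 50.9%. Without that organoid library the lowest JUNB share in the expansion libraries was 61.2%. Such intervals cover counting error only.

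**Figure D2:**
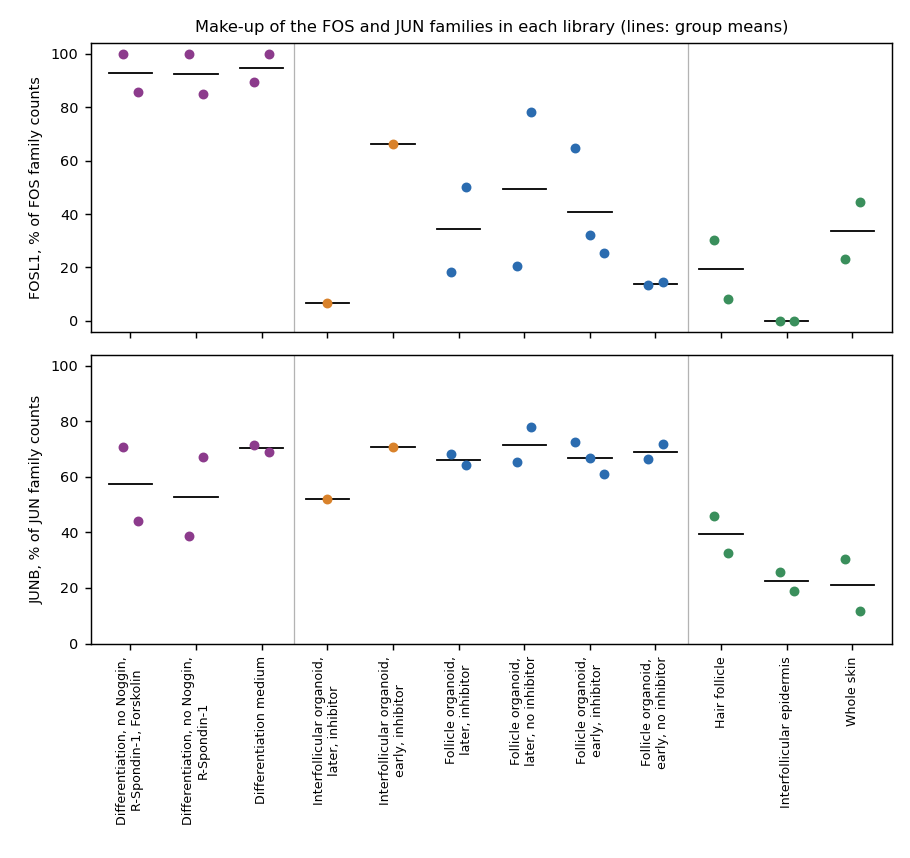
FOSL1 as a percentage of the FOS, FOSB and FOSL1 counts (top) and JUNB as a percentage of the JUN, JUNB and JUND counts (bottom) in each library, with group means as lines and colours as in the plot of levels. JUNB takes 52.2 to 78.0% in expansion organoids against 11.61 to 45.9% in tissue, and FOSL1 takes 85.0 to 100% in differentiation medium.

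Markers of other cell types moved with this comparison. Fibroblast markers, with counts for 4 to 6 of 6 in each organoid group and 6 of 6 in follicles, summed to 47.8 to 483 CPM in follicle organoids, against 4267 to 7168 CPM in follicles, and PDGFRA was at 0 in 3 of the 4 organoid groups. Smooth muscle markers summed to 24.8 to 118.5 CPM in organoids, against 1219 to 1414 CPM in follicles, and immune markers to 2.99 to 10.8 CPM, against 96.0 to 215 CPM. The part of these cells in the tissue levels of EGR2, NR4A1 and JUND was not tested.

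Genes around the 10 factors moved with mixed sign. In this comparison 19% of all genes were called lower and 9.07% higher, and whether any list departs from these shares was not tested. Of 14 tested genes from the list of other immediate early genes, 4 fell and 0 rose in follicle organoids, including CTGF, a secreted matrix protein (-5.44 ± 0.51), NR4A2, a close relative of NR4A1 (-3.48 ± 0.75, but -2.23 and not called without follicle replicate 2), and PPP1R15A, a stress phosphatase subunit (-1.55 ± 0.38, but not called without follicle replicate 2, adjusted p = 0.0711). Of 13 feedback genes, which damp MAP kinase or EGR activity, 6 fell and 0 rose, led by the MAP kinase phosphatases DUSP2 (-5.18 ± 0.34) and DUSP5 (-1.99 ± 0.35) and by SPRED2, an inhibitor of RAS signalling (-4.45 ± 0.62). DUSP1, a phosphatase commonly induced beside FOS, averaged 48.8 CPM in organoids and 52.2 CPM in follicles (-0.13, adjusted p = 0.885).

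Beside 9.07% of all genes called higher in the same comparison, 3 of 14 upstream genes rose and 0 fell. They included ELK3, an ETS factor that binds beside SRF (1.58 ± 0.36, but 1.23 and not called without follicle replicate 1). The kinase RPS6KA1 also rose (3.30 ± 0.88, but 2.19 and not called without follicle replicate 2). Of 11 keratinocyte genes known as AP-1 targets, 3 rose and 0 fell: KRT6A, a wound keratin (2.58 ± 0.45), MMP1, a collagenase (3.84 ± 0.735), and HBEGF, an EGF receptor ligand (1.95 ± 0.38). Among 9 other bZIP partners, FOSL2 was the gene called (-0.98 ± 0.35, adjusted p = 0.0423), and leaving out any of 9 libraries ended that call (-0.92 to -1.02). Of 8 heat shock genes 3 rose: the chaperones HSPA8 (1.56 ± 0.32), HSPA5 (1.09 ± 0.28; not called without follicle replicate 1, 1.13, or 2, 1.05) and HSPH1 (1.43 ± 0.38; 1.06 and not called without follicle replicate 2).

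Interfollicular organoids were set against interfollicular epidermis in the same way, with 1 library at each passage. FOSL1 rose and EGR2 fell here as well, 2 of the 8 tested genes beside 11.3% of all genes called, 6.79% higher and 4.53% lower. FOSL1 had 54.1 CPM in the later and 94.1 CPM in the early organoid library, against 0 counts in both epidermis libraries. The 58 organoid counts put it at least 15.4-fold higher when 3 counts over the epidermis group are taken as the floor, and the exact 95% counting interval of the ratio started at 12.1 (edgeR adjusted p = 0.000692; 0.0514 without epidermis replicate 1). Without the later organoid library it was still called. At 25 and 20 FOS family counts, a FOSL1 share of 0 in epidermis allowed up to 13.7% and 16.8% (exact 95% bound).

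EGR2 had 36.1 CPM in the later and 11.5 CPM in the early interfollicular organoid library, against 86.2 and 85.5 CPM in epidermis. Both organoid libraries were lower, each with 6 counts of EGR2. It fell by 2.07 ± 0.60 (edgeR adjusted p = 0.0292), and the call was lost without epidermis replicate 1 (-2.04, 0.175), without epidermis replicate 2 (-2.04, 0.0652) and without the early organoid library (-1.22, 0.418). Without the later library, which stands apart, it was still called.

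The remaining genes were not called in interfollicular organoids. NR4A1 had 24.1 and 13.4 CPM in the later and early organoid libraries, against 55.1 and 209.9 CPM in epidermis (-2.71 ± 1.10, edgeR adjusted p = 0.116). These organoid values rest on 4 and 7 counts, and 3 counts are 18.0 CPM in the later library. JUNB had 433 and 328 CPM in the same organoid libraries, against 117 CPM in each epidermis library (1.69 ± 0.66, edgeR adjusted p = 0.102). Neither gene overlapped between the groups. JUND did not either, at 307 and 129 CPM in the later and early organoid libraries, against 326 and 490 CPM in epidermis (-1.02 ± 0.46, edgeR adjusted p = 0.161). The share of all genes that separate in this way was not counted. Without the filter on low counts NR4A1 (-2.70, 0.000726) and JUNB (1.69, 0.0157) were called, and with library totals JUND was (-1.65, 0.0311). FOS had 734 and 48.0 CPM in the later and early organoid libraries, on either side of the 59.9 and 155.5 CPM in epidermis (0.925 ± 0.94, adjusted p = 0.557). Fibroblast markers summed to 679.6 and 129 CPM in the later and early organoids, against 1251 to 3583 CPM in epidermis, and immune markers to 72.2 and 9.60 CPM, against 555.6 to 606 CPM; their part in these values was not tested.

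Interfollicular and follicle organoids with the inhibitor were compared with each other at matched passage, and edgeR called 0 of the 8 genes, as did DESeq2, beside 6.4% of all genes; 1 gene, EGR2, had an unadjusted p under 0.05. The later interfollicular library had the highest level of FOS (734 CPM), JUN (90.2 CPM) and EGR1 (403 CPM) of all 23 libraries. With that library alone on the interfollicular side, edgeR called EGR1 (2.92, adjusted p = 0.0233), EGR2 (3.39, 0.0289) and JUN (3.24, 0.0242), and without it edgeR called 0 of the 8 and all 8 fitted values were below 0. The part of its hair shaft and fibroblast transcripts in these values was not tested.

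Around them, KLF4, a zinc finger factor of suprabasal keratinocytes, was higher in interfollicular than in follicle organoids (2.83 ± 0.28, adjusted p = 3.71e-07; smaller without the later library, but still called), and also higher than in interfollicular epidermis (1.605 ± 0.37), although the rise over epidermis was not called without the later library (0.78), without epidermis replicate 1 (1.53) or with library totals (1.015). ATF2, a bZIP partner of JUN, was higher than in follicle organoids by 3.02 ± 0.35, and IER5 by 2.80 ± 0.34, but without the later library these were 1.71 and 1.39 and not called.

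**Figure D3:**
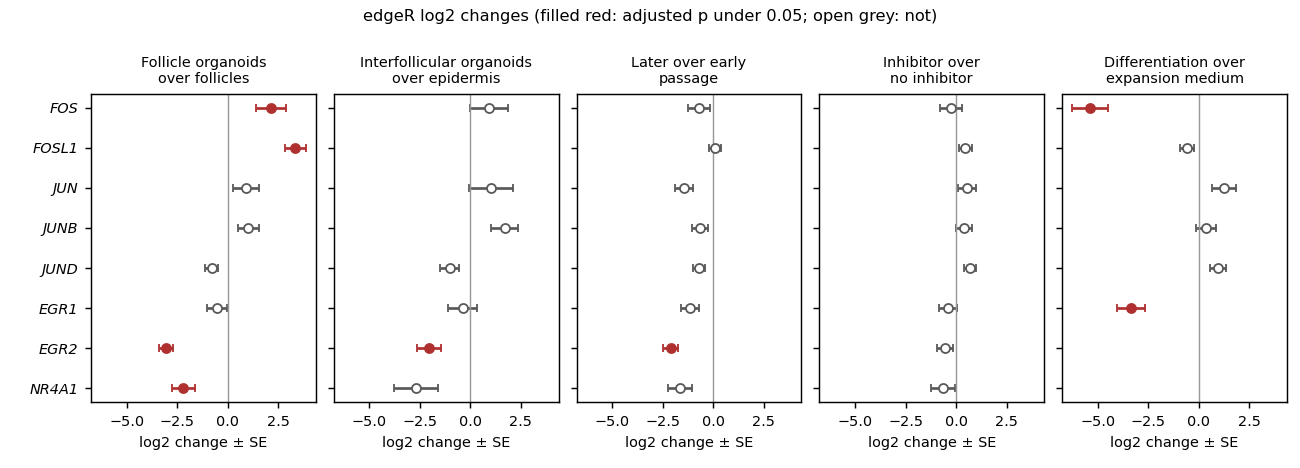
Fitted log2 change ± SE of each gene in 5 comparisons, with calls at an adjusted p under 0.05 filled in red. FOSL1 in interfollicular organoids and EGR2 and NR4A1 in differentiation medium are left out, since a group at 0 counts makes the fitted change unusable; FOS in differentiation medium lies furthest from 0, at -5.38.

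Among the tissues no gene was called in any pair. edgeR and DESeq2 called 0 of the 8 genes in follicles against epidermis (2.8% of all genes called), 0 in follicles against whole skin (0% of all genes, 142 of them with an unadjusted p under 0.05 and 0 called by DESeq2) and 0 in epidermis against whole skin (1.55% of all genes). FOSL1 had an unadjusted p under 0.05 against epidermis and between epidermis and skin, where epidermis had 0 counts, against 16 in follicles and 21 in whole skin. The exact 95% counting interval of the ratio of follicles to epidermis started at 0.894 and so included no change, and that of epidermis to whole skin ended at 0.727. FOS had 59.9 and 155.5 CPM in epidermis, against 27.5 and 19.9 CPM in whole skin (2.01 ± 0.99, edgeR adjusted p = 0.391), and was called only without the filter on low counts (1.94, 0.0265). EGR2 ran from 65.9 to 102 CPM over the 6 tissue libraries.

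The Tgf-beta inhibitor was compared with no inhibitor in follicle organoids, over both passages. edgeR called 0 of the 8 genes, beside 2.65% of all genes, and so did DESeq2, while 1 gene, JUND, had an unadjusted p under 0.05. JUND ran from 117 to 429 CPM in the 5 libraries with the inhibitor, against 124.9, 88.9, 150.5 and 167.5 CPM in the 4 libraries without (0.71 ± 0.30, adjusted p = 0.268). FOSL1 ran from 47.8 to 117 CPM with a median of 96.8 CPM with the inhibitor, against 67.4, 91.4, 50.6 and 47.1 CPM without (0.47 ± 0.30, adjusted p = 0.523). Both genes overlapped between the groups.

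At early passage alone FOSL1 had 106, 84.5 and 117 CPM with the inhibitor, against 50.6 and 47.1 CPM without (1.07 ± 0.42, edgeR adjusted p = 0.252). FOSL1 did not overlap between these groups, and neither did JUN, JUNB and JUND, also higher with the inhibitor, or EGR1, which was lower. The share of all genes that separate in this way was not counted. Of the 8 genes, 0 were called by edgeR or DESeq2, beside 1.19% of all genes. At later passage 0 of 8 were called by either tool, beside 0.324% of all genes, with no gene of the 8 at an unadjusted p under 0.05. The difference between the passages in the inhibitor's effect was called for 0 of 8 genes by either tool (0% of all genes with edgeR, 1 gene with DESeq2, and 267 genes at an unadjusted p under 0.05); FOSL1 had a difference of -1.22 ± 0.60 (adjusted p = 1).

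Genes known as AP-1 targets were called with the inhibitor. Of the 11 tested 5 rose and 0 fell, with a median log2 change of 1.82 against 0.0 over all genes, beside 1.9% of all genes called higher. HBEGF averaged 97.4 CPM with the inhibitor and 28.5 CPM without (1.82 ± 0.27, edgeR adjusted p = 6e-04), MMP1 averaged 1906 CPM and 240.5 CPM (3.40 ± 0.53, 0.000898) and the stromelysin MMP3 averaged 38.7 CPM and 1.76 CPM (4.54 ± 0.70, 0.00139). None of these 3 calls, made over both passages together, was lost when a library was left out. IVL, which encodes the envelope protein involucrin, averaged 6441 CPM and 745 CPM (3.22 ± 0.80, adjusted p = 0.0312), but leaving out any of 6 libraries ended its call (2.19 to 3.40). In the same comparison KRT10, a suprabasal keratin (-2.24 ± 0.44), and the fibroblast gene DCN (-1.25 ± 0.315) fell. The fibroblast list had a median of -0.84. The part of these genes in the values above was not tested. At early passage alone 4 of the 11 targets were called higher, beside 1.19% of all genes called. Leaving out any of 2 libraries ended the early call of HBEGF, 1 library that of MMP1 and any of 3 that of MMP3. At later passage 0 of the 11 were called, beside 0.324% of all genes. Their median log2 change there was 1.49, against -0.005 over all genes.

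Later and early follicle organoids were compared over both inhibitor conditions. EGR2 fell, 1 of the 8 genes beside 0.354% of all genes called and 0.182% called lower. It had 3.68, 2.99, 7.89 and 2.50 CPM in the 4 later libraries, against 14.8, 12.7 and 20.3 CPM in early libraries with the inhibitor and 34.6 and 13.1 CPM in those without. All 4 later libraries were below all 5 early ones. EGR2 fell by 2.12 ± 0.39 (edgeR adjusted p = 0.0143). Of 6 fibroblast markers DCN (-1.79 ± 0.32) and COL3A1 (-2.65 ± 0.49) also fell with passage, and the list summed to 47.8 to 59.2 CPM in later libraries, against 72.6 to 483 CPM in early ones; their part in the EGR2 value was not tested. The call of EGR2 rested on several libraries, and EGR2 was not called without later inhibitor replicate 1 (-2.19, 0.113) or 2 (-2.06, 0.134), later replicate 2 without inhibitor (-1.84, 0.0877), early replicate 1 without inhibitor (-1.73, 0.1) or early inhibitor replicate 3 (-1.99, 0.053), nor in a fit of these groups alone (-2.13, 0.0892).

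Of the other 7 genes, 6 had fitted values below 0 with passage and none of them was called. JUN had 16.9, 0.998, 7.89 and 8.35 CPM in later libraries, against 11.99 to 44.0 CPM with a median of 26.2 CPM in the 5 early ones (-1.47 ± 0.45, edgeR adjusted p = 0.304). NR4A1 had 14.7, 4.99, 21.1 and 2.09 CPM in later libraries, against 3.36 to 65.3 CPM with a median of 39.7 CPM in early ones (-1.67 ± 0.60, adjusted p = 0.434). Both genes overlapped between passages, and JUN (0.0063), NR4A1 (0.000314) and EGR1 (0.0304) were called without the filter on low counts. EGR1 was also called without later replicate 1 lacking inhibitor (-2.60, adjusted p = 0.00434). FOSL1 averaged 75.8 CPM in later and 75.7 CPM in early organoids (0.09 ± 0.30, adjusted p = 1).

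Differentiation medium was compared with expansion medium in later follicle organoids without the inhibitor. FOS and EGR1 fell, 2 of the 8 genes, both lower, beside 10.2% of all genes called lower and 14.6% called in all. The differentiation libraries list another set of genes, and the labels name no batch. An effect of medium cannot be told apart from any difference in processing. The differentiation libraries were also shallow, and a count of 0 over the 2 libraries of a differentiation group allows up to 3.35 to 4.455 CPM (3 counts). Fibroblast markers summed to 0 to 25.5 CPM in differentiation medium, against 50.5 to 59.2 CPM in expansion medium, and 4 of 6 were called lower. Of the other marker genes, KRT10 (-2.44 ± 0.47), KRT5 (-1.28 ± 0.41), the hair keratins KRT32 and KRT81 and the immune gene CD74 fell. The last 3 had 0 counts in all 6 differentiation libraries. TAGLN (2.17 ± 0.73) was the 1 of 3 tested smooth muscle genes called higher. The others, ACTA2 and CNN1, had fitted values below 0 and were not called. VWF (1.95 ± 0.63) rose and was the 1 endothelial gene tested. Whether smooth muscle or endothelial cells were more abundant was not tested. The part of the cell types named here in the values below was not tested either.

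FOS was at 0 in 3 of the 6 differentiation libraries, with 0 and 4.26 CPM in the medium lacking Noggin, R-Spondin-1 and Forskolin, 0 and 7.415 CPM in that lacking Noggin and R-Spondin-1, and 9.94 and 0 CPM in the complete medium. Expansion medium gave 258 and 25.5 CPM. All 6 differentiation libraries were below both expansion libraries. In counts this was 10 in differentiation medium, against 975 in expansion medium, a level 39.2-fold lower (95% counting interval 21.2 to 82.0). The fitted change was -5.38 ± 0.88 (edgeR adjusted p = 0.000386), but -2.90 (adjusted p = 0.0944) without expansion replicate 1, which was 10.1 times as high as replicate 2.

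EGR1 ran from 2.47 to 8.28 CPM with a median of 4.53 CPM in the 6 differentiation libraries, against 101.5 and 7.10 CPM in expansion medium. The lower expansion library lay inside the range of the differentiation libraries. EGR1 fell by 3.37 ± 0.68 (edgeR adjusted p = 0.00247), a change that rested on expansion replicate 1: without it the value was -0.44 (adjusted p = 0.75). The other expansion libraries, outside this comparison, held EGR1 at 41.7 CPM or more.

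NR4A1 had 2 counts in the 6 differentiation libraries, against 80 in the 2 expansion libraries, a ratio that counting alone puts at 16.1-fold lower (95% interval 4.31 to 135). It was not called by edgeR (adjusted p = 0.0605), but was by DESeq2 (0.0197), without the filter on low counts (1.32e-05) and without expansion replicate 2 (0.0253). The lower expansion library had 2.09 CPM, under the floor of every differentiation group, so a difference from that level was not detectable at this depth. EGR2 had 7 counts, against 34 in expansion medium, 1.95-fold lower with a counting interval of 0.852 to 5.22 that includes no change (adjusted p = 0.128).

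The FOSL1 and JUN family levels in differentiation medium were not called different. FOSL1 ran from 25.5 to 82.8 CPM with a median of 48.4 CPM in differentiation medium, against 67.4 and 91.4 CPM in expansion medium (-0.60 ± 0.36, edgeR adjusted p = 0.28). JUNB ran from 130 to 788 CPM with a median of 372 CPM, against 249.5 and 344 CPM (0.37 ± 0.50, adjusted p = 0.651). JUND ran from 123.1 to 353 CPM, against 125 and 88.9 CPM (0.94 ± 0.38, adjusted p = 0.0993), and DESeq2 called it (1.065, 0.0405), as did the fit without replicate 1 of the medium lacking all 3 factors (1.095, 0.0478). JUN ran from 7.21 to 42.6 CPM, against 7.89 and 8.35 CPM (1.25 ± 0.60, adjusted p = 0.16).

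With FOS low and FOSL1 still present, FOSL1 made up 85.0 to 100% of the FOS family counts in the 6 differentiation libraries, against 20.7 and 78.2% in the expansion libraries of this comparison. The exact 95% intervals of the differentiation libraries were wide, with lower bounds between 42.1 and 88.4%, as each rests on 7 to 56 FOS family counts. Over the 9 follicle organoid libraries in expansion medium the FOSL1 share ran from 13.3 to 78.2% with a median of 25.3%. JUNB took 38.6 to 71.6% of the JUN family counts in differentiation medium, against 65.3 and 78.0% in expansion medium. JUND took 25.7 to 59.3% in differentiation medium. Both ranges overlapped those of tissue, at 11.61 to 45.9% for JUNB and 51.6 to 84.4% for JUND.

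The complete differentiation medium alone gave 1 call of 8 against expansion medium, beside 3.4% of all genes called and 2.14% called lower. FOS fell by 4.46 ± 1.17 (edgeR adjusted p = 0.0385), and this call was lost without expansion replicate 1 (-1.98, 0.478), without either differentiation library (adjusted p = 0.0796 and 0.267), and in a fit of these groups alone (-4.44, 0.136). EGR1 was not called (-3.05 ± 0.95, adjusted p = 0.0797), but was by DESeq2 (0.0288). On withdrawal of Noggin and R-Spondin-1, 0 of the 8 genes were called by edgeR or DESeq2 (0% of all genes by either tool, 256 at an unadjusted p under 0.05). On withdrawal of Forskolin as well, 0 of 8 were called by either tool (0% of all genes, 327 at an unadjusted p under 0.05, EGR2 among them with 0 against 5 counts). NR4A1 and FOS, which answer to cAMP, had 0 and 1 counts in the medium without Forskolin, against 1 and 3 counts with it, so a change in them was not detectable at this depth.

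Of 14 other immediate early genes, KLF4 was the 1 that fell in differentiation medium (-4.09 ± 0.47, edgeR adjusted p = 1.4e-05), beside 10.2% of all genes called lower. That list had a median log2 change of 0.39, against -0.14 over all genes. MAP2K1, a MAP kinase kinase, was the 1 of 14 upstream genes called lower (-2.17 ± 0.33, adjusted p = 0.000227). DUSP1 was the 1 feedback gene of 13 called lower (-2.56 ± 0.74, adjusted p = 0.0255), and was not called without expansion replicate 1 (-0.69), replicate 1 of the complete medium (-2.06) or replicate 1 of the medium lacking all 3 factors (-2.27). MMP1 was the 1 AP-1 target of 11 called lower (-2.04 ± 0.54, adjusted p = 0.0153), and was not called without expansion replicate 2 (-1.36). Of 9 bZIP partners, 1 rose and 1 fell; MAFK was higher (1.57 ± 0.46), but leaving out any of 5 libraries ended its call (1.19 to 1.66). IVL averaged 6774 CPM in differentiation and 1182 CPM in expansion medium (2.51 ± 1.01, adjusted p = 0.0978). Of 8 heat shock genes 0 were called and the list median was -0.22; HSPB1, a small heat shock protein, averaged 7999 CPM in differentiation and 3233 CPM in expansion medium (1.25 ± 0.46, adjusted p = 0.069).

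Replicates of follicle organoids differed widely in some groups, to an extent that varied between genes and groups. In later organoids without inhibitor, replicate 1 had 14.3 times the EGR1, 10.1 times the FOS and 10.1 times the NR4A1 level of replicate 2. With a pseudocount of 1 CPM these ranked 2nd, 5th and 8th among 9878 genes for their excess in replicate 1, and ATF3, a stress-induced bZIP factor, at 30.2 and 4.17 CPM, and DUSP1, at 51.9 and 8.35 CPM, ranked 11th and 13th. In all, 21 genes, or 0.213%, were more than 4-fold higher in replicate 1. FOSL1 and the 3 JUN family genes were not among them: FOSL1 had 67.4 and 91.4 CPM, JUN 7.89 and 8.35 CPM, JUNB 249.5 and 344 CPM and JUND 125 and 88.9 CPM.

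The size of the differences varied between the other groups and between genes. In later organoids with inhibitor NR4A1 differed 2.95-fold, FOS 2.22-fold and EGR1 1.54-fold. JUN had 16.9 and 0.998 CPM there, from 23 and 1 counts. In the second library 3 counts are 2.99 CPM, so the 16.9-fold difference in JUN rests on a value under that floor. In early organoids without inhibitor FOS differed 1.21-fold, EGR1 1.16-fold, NR4A1 1.64-fold and EGR2 2.65-fold.

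Among the 3 early libraries with inhibitor, FOS had 57.8, 179 and 345 CPM, EGR1 41.7, 103.5 and 125 CPM, and NR4A1 3.36, 19.6 and 46.8 CPM in replicates 1, 2 and 3. JUN had 26.2, 28.2 and 44.0 CPM, JUNB 551, 552 and 746 CPM, and JUND 181, 247 and 429 CPM. These 6 genes were lowest in replicate 1 and highest in replicate 3, whereas FOSL1, at 106, 84.5 and 117 CPM, and EGR2, at 14.8, 12.7 and 20.3 CPM, were lowest in replicate 2. Replicate 1 had 5.35% and replicate 2 had 26.9% mitochondrial counts, against 17.7% in replicate 3, and the part of this in the spread was not tested. The 2 later libraries without inhibitor had 17.4 and 15.5%.

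**Figure D4:**
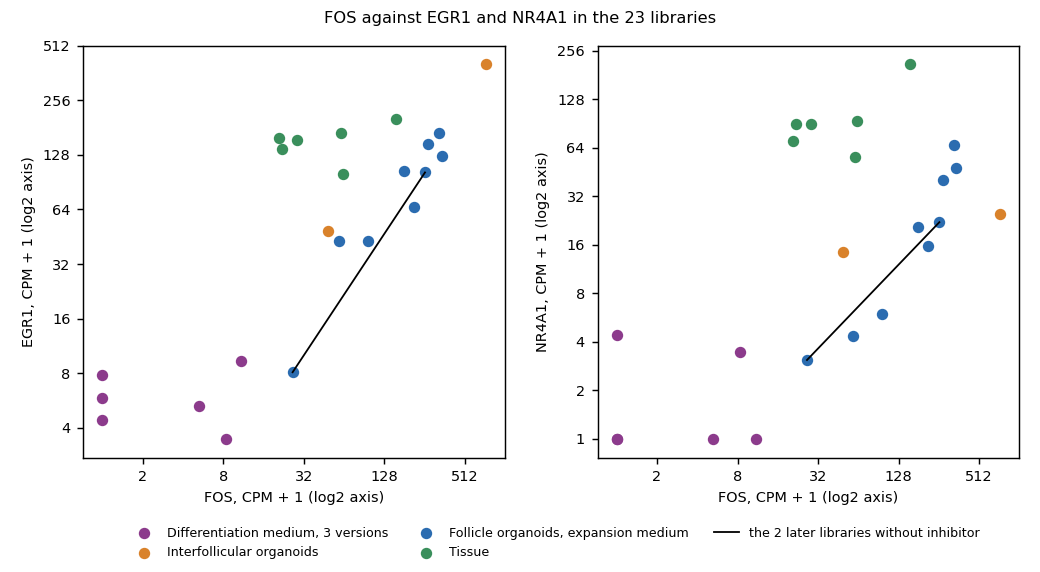
FOS against EGR1 (left) and NR4A1 (right) in the 23 libraries, as CPM + 1 on log2 axes, coloured by kind of sample; 2 differentiation libraries coincide at 1 on both axes of the right plot. The black line joins the later follicle organoid libraries without inhibitor, which differ 10.1-fold in FOS, 14.3-fold in EGR1 and 10.1-fold in NR4A1, and tissue libraries have more NR4A1 than organoids with as much FOS.

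Across the means of the 12 groups, on a log2(CPM + 1) scale, FOS varied with EGR1 (Pearson's r = 0.86), EGR1 with NR4A1 (0.89) and EGR2 with NR4A1 (0.93), while FOSL1 varied with JUNB (0.83) and not with FOS (0.02). These are descriptions over 12 points that share libraries, library scaling and the contrast between tissue, culture and differentiation medium. Neither they nor the likenesses below were repeated without the later interfollicular organoid library, the highest group for FOS, JUN and EGR1. Over the deviations of 21 libraries from their group means, r was highest for JUND and NR4A1 (0.775), followed by JUN and JUND (0.675), FOS and JUND (0.67), JUN and JUNB (0.67) and EGR2 and NR4A1 (0.665). It was 0.54 for FOS and EGR1 and -0.40 for FOSL1 and JUNB, so the last pair ran together between groups but not in these deviations. The 21 points are not independent, since the deviations in a group of 2 libraries are equal and opposite. Differentiation libraries with few counts of FOS and NR4A1 are among them.

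The genes whose 12 group means were most like a member, of 8471 compared, were ASUN (r = 0.96), DNAJC9 (0.94) and FIP1L1 (0.94) for FOS, and PRELID1 (0.965), SERPINE2 (0.965) and NUDT5 (0.96) for FOSL1. For JUNB they included ETV4 (0.94) and EIF2S2 (0.94), and for EGR1 they were SON (0.96), AXIN2 (0.95) and SPRY1 (0.94). For NR4A1 they were the fibroblast collagen COL3A1 (0.96), SPIN1 (0.95) and AXIN2 (0.95). ETV4, an ETS factor, ran from a group mean of 0 to 23.5 CPM, SERPINE2, a secreted protease inhibitor, from 11.97 to 474 CPM, and COL3A1 from 0 to 1744 CPM.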

How the data were processed

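The values per gene that the authors deposited are treated here as estimated counts (expected counts), since 4.91 to 10.65% of a library's entries hold a fraction, and they were rounded to whole numbers. The origin of the fractions is not given in any source used here. The submitters' processing notes name BWA 0.6.2-r126 and the build CanFam3.1; no source used here gives the annotation, the counting tool or any collapsing of molecular barcodes. Entries that name no gene, left out here, made up 0.461 to 2.158% of the counts. Genes were matched by symbol, and a RefSeq table of another build gave current symbols to 401 of 6691 provisional locus names; no coordinates were used.

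All 23 libraries entered a single fit with 12 group means, made with edgeR 4.0.16 in R 4.3.3 after the default filter on low counts, with TMM scaling, 11 residual degrees of freedom and a common dispersion of 0.0984. Pooled groups enter as the plain mean of their log2 means. The interfollicular organoid groups have 1 library each and are assumed to vary like the others. In the 15 comparisons, DESeq2 1.42.0, other scalings, no filter, the compared groups alone, a replicate block and leaving out each library were tried. The pipeline was tested on simulated data. Replicates all differed by more than counting noise (chi-square per degree of freedom of 4.96 or more). Bounds against a group at 0 use 3 counts over the group, and 95% intervals cover counting error only.

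The members, the gene lists and the tests were chosen with earlier results of these data known. Of each other list, up to 3 called genes with the smallest adjusted p in each direction are named, and IVL, DUSP1 and ATF3 were also named after their values were seen. Genes like a member are the 3 with the highest correlation among those with a symbol, tested, listed in all libraries and reaching 10 CPM in some group. Some genes that these rules select are not reported here.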

Additional observations from a re-analysis of the deposited data

How the results depend on the processing

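The number of the 8 genes called kept within 1.5 times its value in most settings. That number was 0 in many comparisons and does not show which genes were called. With DESeq2 size factors and with library totals, follicle organoids against follicles kept 4 calls, but FOS was lost and JUND gained. Without the filter on low counts, 1 gene was called in epidermis against whole skin, 4 in interfollicular organoids against epidermis, 4 in later against early passage and 3 in complete differentiation against expansion medium. DESeq2's test called 4 genes in all differentiation media and 2 in the complete medium. With the compared groups alone, 0 were called in later against early passage, 1 in all differentiation media and 0 in the complete medium. The cause of these shifts was not tested. Leaving out a library gave 2 to 5 calls in follicle organoids against follicles, 0 to 2 in interfollicular organoids against epidermis, 0 to 2 in later against early passage, 0 to 3 in interfollicular against follicle organoids, 0 to 3 in all differentiation media and 0 to 2 in the complete medium, and 0 in the other 9 comparisons.

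The labels do not say that a replicate number marks a shared animal or batch, and no comparison has more than 2 common numbers, so no pairing was established. The deviations of same-numbered libraries had correlations from -0.22 to 0.59 over 4564 genes, highest between the differentiation media (0.59 and 0.50). The replicate block used 1 effect per replicate number across all groups. A pairing within the differentiation libraries alone was not fitted, so the withdrawal comparisons do not allow for one. With the replicate block, 4 genes were called in follicle organoids against follicles, with FOS lost (1.95, adjusted p = 0.0624) and JUND gained (-0.89, 0.041), and 3 in all differentiation media, with NR4A1 gained (-4.42, 0.05); the block changed no other call of the 8 genes.

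The share of called genes that were higher in follicle organoids than in follicles was 32.3% with TMM and 21.9% with DESeq2 size factors, and in interfollicular organoids against epidermis it was 60.0% with TMM and 26.3% with library totals, where the median of all genes was -0.69. No result reversed its sign among the called values. The 6 differentiation libraries and the epidermis libraries hold few counts of these genes, which limits what can be seen of NR4A1, EGR2 and FOS there.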
